A study of Mus musculus with 2 samples.

Results

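The small leucine-rich proteoglycans (SLRPs) Prelp, Dcn, Lum, Fmod, Ogn, Bgn, Kera, Omd, Aspn and Epyc were described in 2 rhabdoid tumors (RT) of Dppa3-cre::Smarcb1 mice. These 10 genes were picked by name from the 55416 genes of the count table by a rule that used no threshold on their values. Per the study, both mice were heterozygous for a floxed Smarcb1 allele (Smarcb1 fl/+) on a C57BL/6 background and carried Cre in the Dppa3 locus, which is active in primordial germ cells. By label, an intracranial tumor of the trigeminal nerve was set beside an extracranial, facial and maxillar tumor, and both were classified as MYC. Ages were not given, and no normal tissue was analysed here. Whole pieces of tumor were sequenced, so stroma and any adjoining tissue were part of each library, and fewer cells of a type cannot be told apart from less RNA per cell.

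SLRPs are secreted proteins whose core is built of leucine-rich repeats and mostly carries chondroitin, dermatan or keratan sulfate chains. In tendon, skin, cornea, cartilage and bone they bind fibril-forming collagens and set the width and spacing of the fibrils, and several of them also bind growth factors such as TGF-β. They are made mainly by fibroblasts and other connective tissue cells, and the family is sorted by sequence into classes, with decorin (Dcn), biglycan (Bgn) and asporin (Aspn) in class I, fibromodulin (Fmod), lumican (Lum), Prelp, keratocan (Kera) and osteomodulin (Omd) in class II, and osteoglycin (Ogn) and epiphycan (Epyc) in class III.

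The library labelled intracranial held 34545846 counts and the library labelled extracranial held 26915696. Levels are CPM, read counts over the scaled library size in its usual unit, and the floor, set at 3 counts, lay at 0.0863 CPM in the former and 0.112 CPM in the latter. With 1 library per location there was no replicate and no test. Intervals in parentheses are exact 95% intervals of counting error only, ratios are extracranial over intracranial, and a gene was called where its whole interval lay beyond 4-fold. Smarcb1, the floxed gene, was measured at 10.5 and 19.8 CPM. The marker genes were then set against the labelled sites. Keratinocyte genes summed to 19881 CPM in the library labelled intracranial and to 3.21 CPM in the library labelled extracranial, where 5 of 10 (Krt5, Krt1, Dsg3, Trp63 and Ivl) had 0 counts. The most abundant of them, Krt13, a keratin of moist squamous epithelium, had 366709 and 5 counts. Schwann cell markers of nerve were above the floor for 9 of 9 genes in the library labelled intracranial and for 8 of 9 in the other, where Sox10 had 0 counts. All 9 were higher in the library labelled intracranial, with a median log2 ratio of -2.28. Of these, 4 were called, beside 5.41% of all compared genes in that direction. As squamous epithelial genes were abundant where the label says intracranial, both libraries are named after their labels only.

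Of the 10 SLRP genes, 8 were abundant enough to be compared, and 5 of those 8 were called. Fmod, Aspn and Prelp were higher in the library labelled intracranial, Dcn and Lum were higher in the library labelled extracranial, and Ogn and Bgn each differed by less than 2-fold between the libraries. Kera and Epyc were at or near 0. Across the table, 7.19% of the 21977 genes with 10 or more counts were called, with 5.41% higher in the library labelled intracranial and 1.78% higher in the library labelled extracranial. Among the 9131 genes with 1000 or more counts, to which all 8 compared SLRP genes belonged, the share was 4.34%. The SLRP genes were chosen with earlier results of these data known, so these shares do not test whether the family is unusual. Scaling to the fibroblast markers, in which the median log2 ratio of 12 such genes was subtracted from every ratio, turned the split over the table, which was 391 genes higher and 1190 lower in the library labelled extracranial, to 1153 higher and 784 lower, and it left 4 SLRP genes called, without Prelp. Those 12 fibroblast genes spanned log2 ratios from -2.77 (Fbln1) to 1.75 (Thy1), so they did not shift together and give a loose reference. Their median lay between Pdgfra and Clec3b, and Clec3b had 7 and 1 counts, too few to be compared. The plot of levels shows the opposite shifts of the 2 sets of called SLRP genes.

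**Figure D1:**
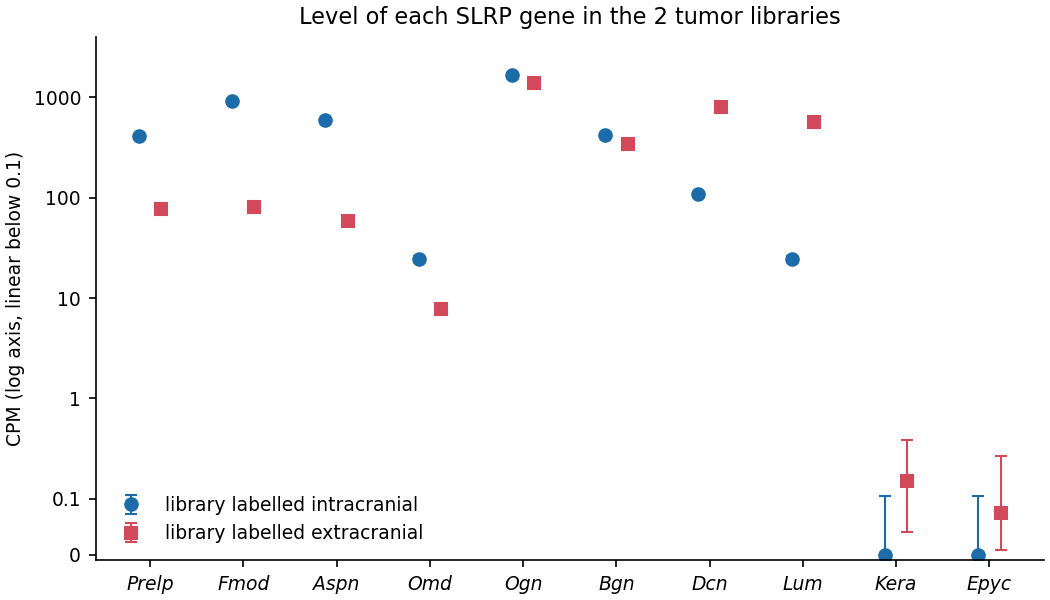
Level of each SLRP gene in CPM (log axis, linear below 0.1) in the library labelled intracranial (blue circles) and the library labelled extracranial (red squares), with bars for the exact 95% counting interval where it exceeds the symbol. Fmod fell from 919.8 to 80.1 CPM between the former and the latter, Lum stood at 24.5 and 572 CPM, Ogn at 1663 and 1395 CPM, and Kera and Epyc lay near 0.

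Promoter sequences are shown for 2 pairs of genes, each from a single cluster. Fmod and Prelp lie next to each other on chromosome 1 and were both higher in the library labelled intracranial, whereas Aspn and Ogn lie on either side of Omd on chromosome 13 and differed in their ratios. The bases from 250 to 21 before the start of each gene were taken from the RefSeq promoter table of GRCm38.p6, which matched 8 of the 10 members, all but Dcn and Lum. Capitals mark matches by sequence alone, at any position and on either strand. The motifs were TATAAA (as in the TATA box), CCAAT (the CCAAT box), TGANTCA (the AP-1 site) and GGAATG (the TEAD site). The windows were Fmod chr1:134037004-134037233 on the plus strand, Prelp chr1:133921422-133921651 on the minus strand, Aspn chr13:49544193-49544422 and Ogn chr13:49607765-49607994, both on the plus strand, each printed 5′ to 3′ along its gene.
Fmod: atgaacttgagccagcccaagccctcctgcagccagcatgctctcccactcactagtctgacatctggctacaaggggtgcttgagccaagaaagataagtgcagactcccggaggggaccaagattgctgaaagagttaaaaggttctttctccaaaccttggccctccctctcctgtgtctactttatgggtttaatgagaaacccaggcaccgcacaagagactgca
Prelp: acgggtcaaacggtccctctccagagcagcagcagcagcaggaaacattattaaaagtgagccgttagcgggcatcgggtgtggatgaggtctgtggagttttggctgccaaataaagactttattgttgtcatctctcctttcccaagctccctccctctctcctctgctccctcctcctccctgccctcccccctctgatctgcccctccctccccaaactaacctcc
Aspn: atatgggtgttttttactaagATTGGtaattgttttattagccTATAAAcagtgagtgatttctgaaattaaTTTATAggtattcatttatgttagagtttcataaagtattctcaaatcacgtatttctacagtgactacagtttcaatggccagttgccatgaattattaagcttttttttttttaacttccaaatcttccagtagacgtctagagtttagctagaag
Ogn: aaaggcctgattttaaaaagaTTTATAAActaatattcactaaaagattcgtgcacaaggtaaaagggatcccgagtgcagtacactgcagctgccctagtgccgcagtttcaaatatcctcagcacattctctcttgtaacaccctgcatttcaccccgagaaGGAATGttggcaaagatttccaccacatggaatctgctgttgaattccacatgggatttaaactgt

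In these windows Aspn held 2 matches to TATAAA and 1 to CCAAT, and Ogn held 2 matches to TATAAA, which overlap on opposite strands, and 1 to GGAATG. Fmod and Prelp held none of the 4 motifs, and neither did Bgn, Omd or Epyc. Of all 27025 promoter windows of this length, 12.4% held TATAAA, 32.8% CCAAT, 6.45% TGANTCA and 11.8% GGAATG. The GC content was 29.6% for Aspn, 41.7% for Ogn, 51.7% for Fmod and 55.7% for Prelp, beside a median of 51.7% over all windows. Aspn and Ogn thus shared a match to the TATAAA sequence while their ratios differed. Fmod and Prelp shared the lack of these motifs with Bgn, Omd and Epyc. The share of all windows without any of the 4 motifs was not computed. The TATAAA matches of Aspn and Ogn lay in the part of each window far from the gene start, so they do not mark a TATA box there.

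In class I, Dcn and Aspn shifted in opposite directions and Bgn changed little. Decorin (Dcn, ENSMUSG00000019929) carries a dermatan or chondroitin sulfate chain, binds collagen I and is a textbook product of fibroblasts. Dcn had 3745 counts or 108 CPM (104.4 to 111) in the library labelled intracranial and 21130 counts or 789.6 CPM (779 to 800.3) in the library labelled extracranial. The level stood 7.33-fold higher in the library labelled extracranial, with a log2 ratio of 2.87 (2.82 to 2.92). Asporin (Aspn, ENSMUSG00000021388) has a run of aspartate in place of a chain and binds collagen and TGF-β. Aspn had 20514 counts in the library labelled intracranial, or 590.4 CPM (582 to 599), against 1568 counts in the library labelled extracranial, or 58.6 CPM (55.7 to 61.6). It stood 10.1-fold higher in the library labelled intracranial, with a log2 ratio of -3.33 (-3.41 to -3.26).

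Biglycan (Bgn, ENSMUSG00000031375), the closest relative of decorin, usually carries a pair of chains and also acts as a ligand of Toll-like receptors. Bgn had 14642 counts or 421 CPM (415 to 428) in the library labelled intracranial and 9174 counts or 343 CPM (336 to 349.9) in the library labelled extracranial. The log2 ratio was -0.30 (-0.34 to -0.26), a difference beyond counting error and well inside 4-fold, and scaling to the fibroblast markers, the only scaling tried that turned its direction, gave 0.61. Since Bgn stayed nearly level, the ratio of Dcn to Bgn within a library, a measure that no scaling of library sizes can move, rose 9.01-fold, or 3.17 on the log2 scale (3.11 to 3.23).

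In class II, Lum moved against Fmod, Prelp and Omd. Lumican (Lum, ENSMUSG00000036446) is a keratan sulfate proteoglycan of cornea, skin and tendon that limits fibril width. Lum had 853 counts or 24.5 CPM (22.9 to 26.3) in the library labelled intracranial and 15309 counts or 572 CPM (563 to 581) in the library labelled extracranial. At 23.3-fold higher in the library labelled extracranial, with a log2 ratio of 4.54 (4.44 to 4.64), it had the widest gap of the 8 compared SLRP genes. Fibromodulin (Fmod, ENSMUSG00000041559) shares the collagen I binding region of lumican, and the pair are known to follow each other in growing tendon fibrils. Fmod had 31960 counts or 919.8 CPM (909.7 to 929.9) in the library labelled intracranial and 2144 counts or 80.1 CPM (76.8 to 83.6) in the library labelled extracranial. It stood 11.5-fold higher in the library labelled intracranial, with a log2 ratio of -3.52 (-3.58 to -3.46).

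Prelp (ENSMUSG00000041577), the proline and arginine-rich end leucine-rich repeat protein, links basement membranes to connective tissue through heparan sulfate and collagen. Prelp had 14382 counts or 414 CPM (407 to 421) in the library labelled intracranial and 2074 counts or 77.5 CPM (74.2 to 80.9) in the library labelled extracranial. It was 5.34-fold higher in the former, with a log2 ratio of -2.42 (-2.48 to -2.35), and with scaling to the fibroblast markers the ratio was -1.51 and no longer called. In the annotation, 350 of its 3615 exon bases overlap the antisense gene Gm15851, and since the use of strand in counting was not stated, reads there cannot be assigned with certainty.

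Osteomodulin (Omd, ENSMUSG00000048368), a keratan sulfate proteoglycan of mineralized tissue, was less abundant. Omd had 856 counts or 24.6 CPM (23.0 to 26.3) in the library labelled intracranial and 208 counts or 7.77 CPM (6.75 to 8.90) in the library labelled extracranial. Its log2 ratio was -1.66 (-1.89 to -1.44), a 3.17-fold difference whose interval lay beyond 2-fold but not beyond 4-fold. Keratocan (Kera, ENSMUSG00000019932), the keratan sulfate proteoglycan of the corneal stroma, showed 0 reads in the library labelled intracranial (up to 0.106 CPM by the exact interval) and 4 counts in the library labelled extracranial, or 0.149 CPM (0.0407 to 0.383). With the 0 counts set to the floor of 3, its log2 ratio came to 0.79, and its interval reached down to -0.22, so no difference was detectable at this depth.

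In class III, Ogn was the leading SLRP transcript of both tumors and Epyc was near 0. Osteoglycin (Ogn, ENSMUSG00000021390), also called mimecan, is found in bone, cornea and vessel walls. The study also names Ogn among the genes shared by MYC tumor cells. Ogn had 57776 counts or 1663 CPM (1649 to 1676) in the library labelled intracranial and 37329 counts or 1395 CPM (1381 to 1409) in the library labelled extracranial. The log2 ratio was -0.25 (-0.27 to -0.23), which scaling to the fibroblast markers turned to 0.66. Epiphycan (Epyc, ENSMUSG00000019936), a product of growth plate cartilage, had 0 counts in the library labelled intracranial against 2 in the library labelled extracranial, so no ratio is given. Of its 2561 exon bases, 1041 overlap the noncoding gene Gm10754 on the opposite strand.

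Over the 9 SLRP genes with a ratio, Dcn and Lum were higher in the library labelled extracranial and 6 were higher in the other (Ogn and Bgn not with scaling to the fibroblast markers), while Kera differed by no more than counting error. The median log2 ratio was -0.30, beside -0.04 over all genes, and it was -0.98 without Kera and 0.61 with scaling to the fibroblast markers. The median hides a spread from -3.52 for Fmod to 4.54 for Lum. The summed level of the 10 genes differed less than that of each called member and of Omd, and more than that of Ogn and Bgn, with 4165 CPM in the library labelled intracranial and 3324 CPM in the library labelled extracranial, or 0.419% and 0.330% of all counts. The log2 ratio of the sum was -0.33 (-0.34 to -0.31). The plot of all genes shows the called members standing out at high mean level, where most genes lay near 0.

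**Figure D2:**
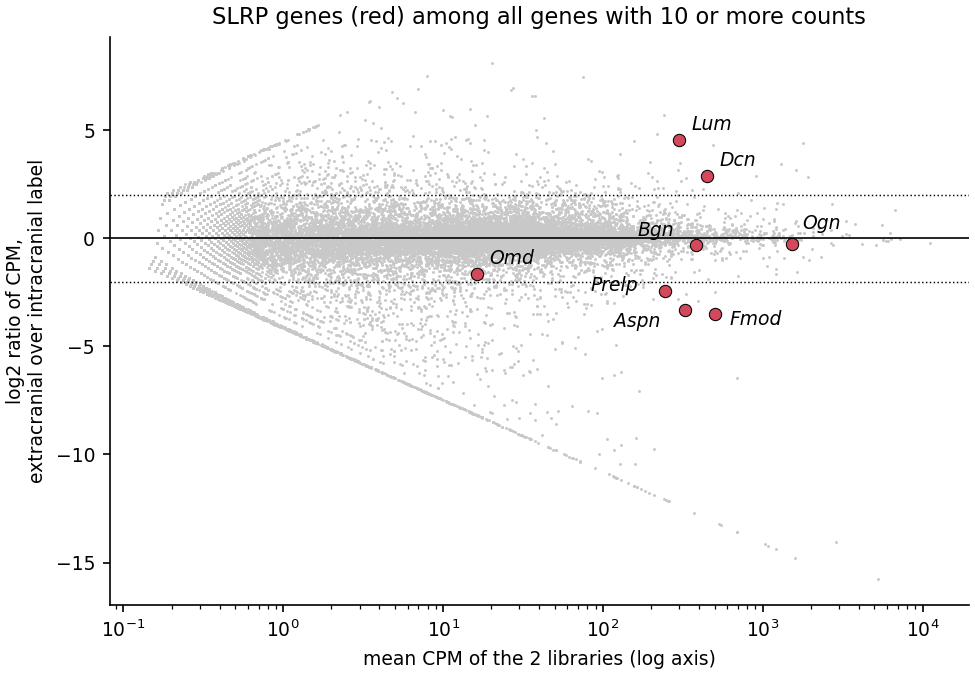
Log2 ratio of CPM, extracranial over intracranial label, against the mean CPM of the 2 libraries (log axis) for all 21977 genes with 10 or more counts (grey), with the 8 compared SLRP genes in red and dotted lines at 4-fold. Lum (4.54) and Dcn (2.87) lie above the upper line, Fmod (-3.52), Aspn (-3.33) and Prelp (-2.42) below the lower, and Ogn and Bgn near 0. The straight lower edge holds genes at or under 3 counts in the library labelled extracranial.

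Levels of different genes were compared per kilobase (kb), on the summed length of all annotated exons of a gene and, since the exons of Dcn and Bgn include retained-intron transcripts, also on the longest protein-coding transcript. Ogn came first in both libraries on either length, at 648 CPM per kb of exon in the library labelled intracranial against 544 in the library labelled extracranial. Among the 21928 protein-coding genes it ranked 60 and 86 on the exon scale. In the library labelled intracranial Ogn was followed by Fmod at 278, Aspn at 251, Prelp at 114 and Bgn at 69.1 CPM per kb of exon, then by Dcn at 18.5, Omd at 11.0 and Lum at 10.03. On the transcript scale the order differed only in that Bgn, at 174 CPM per kb, stood before Prelp. The counting intervals of Omd and Lum overlapped there, so these neighbours could not be ordered.

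In the library labelled extracranial the genes after Ogn were Lum at 234, Dcn at 135 and Bgn at 56.2 CPM per kb of exon. Aspn at 24.9, Fmod at 24.2, Prelp at 21.4 and Omd at 3.46 came behind them. On the transcript scale Dcn, at 449 CPM per kb, stood before Lum, and Fmod at 25.7 before Aspn at 25.2. The order of Dcn and Lum thus depended on the length used, and the counting intervals of Aspn and Fmod overlapped on either length.

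As a share of the summed SLRP level per kb of exon, Ogn held 46.3% in the library labelled intracranial against 52.1% in the library labelled extracranial. Fmod, Aspn and Prelp together were the next block in the library labelled intracranial, with 19.9%, 17.9% and 8.18%, and they held 2.32%, 2.39% and 2.06% in the library labelled extracranial. Lum and Dcn took their place there, with 22.4% and 12.97%, against 0.716% and 1.32% in the library labelled intracranial. Per kb of transcript the share of Dcn was 3.91% and 31.1%, that of Lum 0.640% and 16.2%, and that of Ogn 41.3% and 37.6%. Whether Ogn held more or less of the SLRP transcripts in the library labelled extracranial therefore turned with the length used, whereas the exchange of Fmod, Aspn and Prelp for Lum and Dcn was seen with both.

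**Figure D3:**
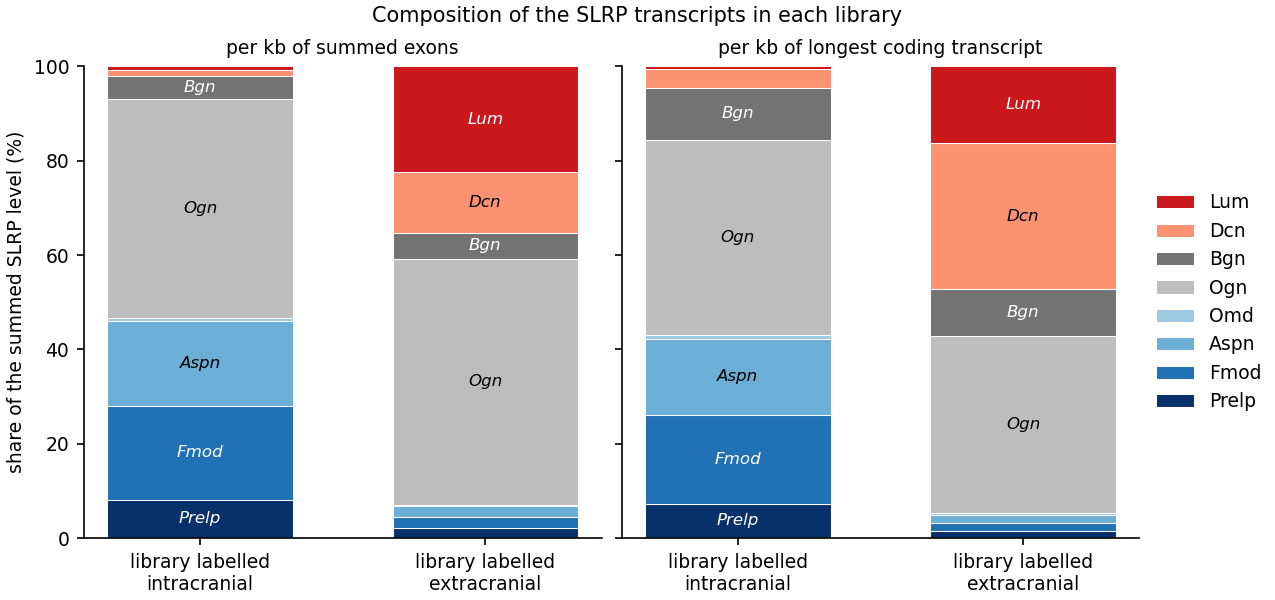
Share of each SLRP gene in the summed level of all 10 (percent), for the library labelled intracranial and the library labelled extracranial, with levels per kb of summed exons on the left and per kb of the longest protein-coding transcript on the right. Fmod, Aspn and Prelp (blue) shrink and Lum and Dcn (red) widen from the former to the latter, with Ogn (light grey) the widest block in each bar. Kera and Epyc are too small to draw.

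Ratios of SLRP genes within a library do not depend on the scaling of library sizes. Lumican and fibromodulin compete for the same site on collagen I, and the ratio of Lum to Fmod per kb of exon was 0.0360 in the library labelled intracranial against 9.64 in the library labelled extracranial. It thus rose 268-fold, or 8.06 on the log2 scale (7.95 to 8.18, normal approximation of counting error here and for the other pairs). The ratio of Dcn to Aspn rose 73.8-fold, or 6.21 (6.12 to 6.30), and that of Ogn to Aspn 8.45-fold, or 3.08 (3.003 to 3.16). Genes called in the same direction also shifted by unequal amounts, since the ratio of Lum to Dcn rose 3.18-fold, or 1.67 (1.56 to 1.78), and that of Prelp to Fmod 2.15-fold, or 1.10 (1.01 to 1.20). Ogn and Bgn kept nearly the same ratio, with a change of 1.03-fold, or 0.04 (0.00 to 0.09).

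SLRP genes lie in clusters, and position was not part of how they were chosen. Chromosome 10 holds Dcn, Lum, Kera and Epyc in this order, and both genes called higher in the library labelled extracranial come from it, while Kera and Epyc beside them were near 0. The next protein-coding genes outside were Btg1, an antiproliferative gene, with a log2 ratio of 0.57 (0.53 to 0.62), and Ccer1, with 0 counts in both libraries. Chromosome 1 holds Prelp and Fmod, both called higher in the library labelled intracranial. Beside them Optc, which encodes the SLRP opticin of the eye, had 10 and 5 counts, and Btg2, a relative of Btg1, had a log2 ratio of 0.82 (0.76 to 0.87), opposite in sign to Prelp and Fmod.

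Chromosome 13 holds Aspn, Omd and Ogn, and their log2 ratios of -3.33, -1.66 and -0.25 followed the order of the genes. On the side of Aspn, Ecm2, an SLRP-like matrix gene, had 192 and 57 counts and a log2 ratio of -1.38 (-1.83 to -0.94), and on the side of Ogn, Nol8, a nucleolar gene, had -0.59 (-0.73 to -0.45). Cenpp, a centromere gene on the opposite strand whose introns span these SLRP genes, had 266 and 160 counts and shares 7 exon bases with Aspn and 0 with Omd and Ogn. Bgn on chromosome X lay between Haus7, at -0.10 (-0.30 to 0.11), and Atp2b3, with 4 and 2 counts. None of the 7 neighbouring genes with 10 or more counts was called.

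**Figure D4:**
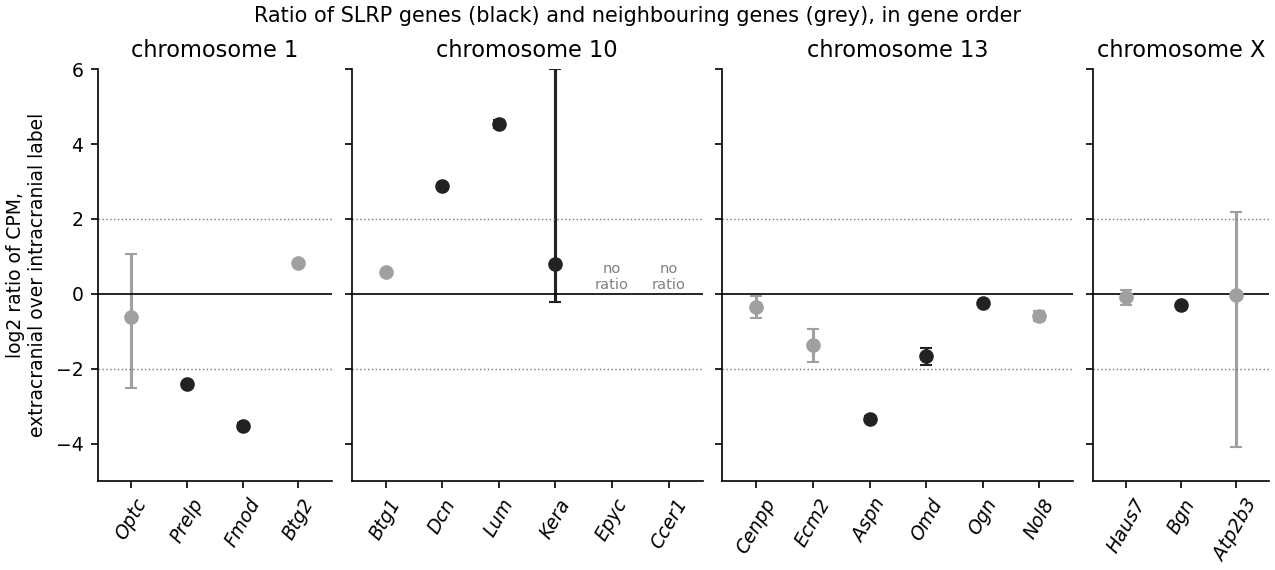
Log2 ratio of CPM, extracranial over intracranial label, for SLRP genes (black) and neighbouring genes (grey) in their order along each chromosome, with exact 95% counting intervals and dotted lines at 4-fold. Dcn and Lum lie above the upper line on chromosome 10, Prelp and Fmod below the lower on chromosome 1, and Aspn (-3.33), Omd (-1.66) and Ogn (-0.25) step towards 0 on chromosome 13. The interval of Kera, whose point takes its 0 counts as 3, has no upper end, and Epyc and Ccer1 have no ratio.

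Most collagen genes whose products SLRPs bind were not called. Of 14 genes for fibril-forming and fibril-associated collagens and collagen VI, 2 were called, both higher in the library labelled extracranial like Dcn and Lum, beside 1.78% of all genes in that direction, and the median log2 ratio was -0.08. Col1a2, a chain of collagen I and the highest of the list, had 1733 and 2414 CPM and a log2 ratio of 0.48 (0.46 to 0.49). Col11a1, a chain of the collagen that seeds thin fibrils, had 256 and 1561 counts and a log2 ratio of 2.99 (2.79 to 3.18). Col5a1, a chain of collagen V, had 711 and 2419 counts and a log2 ratio of 2.14 (2.02 to 2.27). Summed, the list stood at 6449 CPM in the library labelled intracranial and 6686 CPM in the library labelled extracranial.

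Among 13 measured genes of fibril assembly and cross-linking, 1 was called, beside 7.19% of all compared genes, and the median log2 ratio was -0.07. That gene was Comp, whose product, the cartilage oligomeric matrix protein, binds collagen in tendon and cartilage. Comp had 6474 counts in the library labelled intracranial against 270 in the library labelled extracranial, a log2 ratio of -4.21 (-4.39 to -4.03), in the same direction as Fmod, Aspn and Prelp. Ccn2, the highest of the list and the gene of connective tissue growth factor, had 591 and 589 CPM. None of the 14 growth factors and receptors with a ratio that SLRPs are known to bind was called, and their median was 0.35. Lrp1, an endocytic receptor of decorin and the highest of them, had 444 and 372 CPM.

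Chain-building enzymes were mostly level, with a few sulfotransferases apart. Of 22 chondroitin and dermatan sulfate genes, 2 were called higher in the library labelled extracranial against 1 in the library labelled intracranial, with a median of 0.03. Over all compared genes, 1.78% and 5.41% were called in these directions. Chst13, a chondroitin 4-sulfotransferase, had 38 and 553 counts and a log2 ratio of 4.24 (3.77 to 4.75), and Chst11, of the same activity, was the other called higher in the library labelled extracranial. Chst3, a chondroitin 6-sulfotransferase, had 371 and 8 counts and a log2 ratio of -5.16 (-6.38 to -4.17). Dse, the epimerase that makes dermatan sulfate and the highest of the list, had 97.5 and 97.7 CPM. None of 8 keratan sulfate genes was called, with a median of 0.21, and the highest, B4galt1, had 87.4 and 91.7 CPM. Both tyrosylprotein sulfotransferases, which sulfate the N-terminal tyrosines of Fmod, Omd and other class II members, were also not called, and Tpst2 had 30.1 and 43.1 CPM.

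Of 12 genes for proteases known to cut SLRPs, 11 could be compared. Of these, 3 were called, all higher in the library labelled intracranial, beside 5.41% of all compared genes in that direction. These were the matrix metalloproteinase genes Mmp12, Mmp3 and Mmp13. Mmp12, the macrophage elastase, had 1657 and 19 counts and a log2 ratio of -6.07 (-6.81 to -5.42). The list's median was 0.22, opposite in sign to its called genes, and Mmp14, its highest gene, had 174 and 215 CPM.

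Among the 8 other SLRP family genes, none was called and the median log2 ratio was -0.66, with Chad, the gene of chondroadherin, beyond 2-fold at 63 and 8 counts. Tsku, the secreted tsukushi and the highest of them, had 37.2 and 31.6 CPM, and together the 8 genes reached 67.1 and 50.3 CPM. Against 4165 and 3324 CPM for the 10 genes described here, these others were a small share of the SLRP reads. Of 20 proteoglycan genes of other families that could be compared, 1 was called higher in the library labelled extracranial against 2 in the library labelled intracranial, with a median of -0.08. The shares called over all compared genes were 1.78% and 5.41%, in the same order. Spock3 had 13 and 80 counts and a log2 ratio of 2.998 (2.14 to 3.97), Spock2, of the same testican family, had 310 and 12 counts and -4.31 (-5.28 to -3.49), and Hspg2, the gene of the basement membrane proteoglycan perlecan and the highest, had 413 and 445 CPM.

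**Figure D5:**
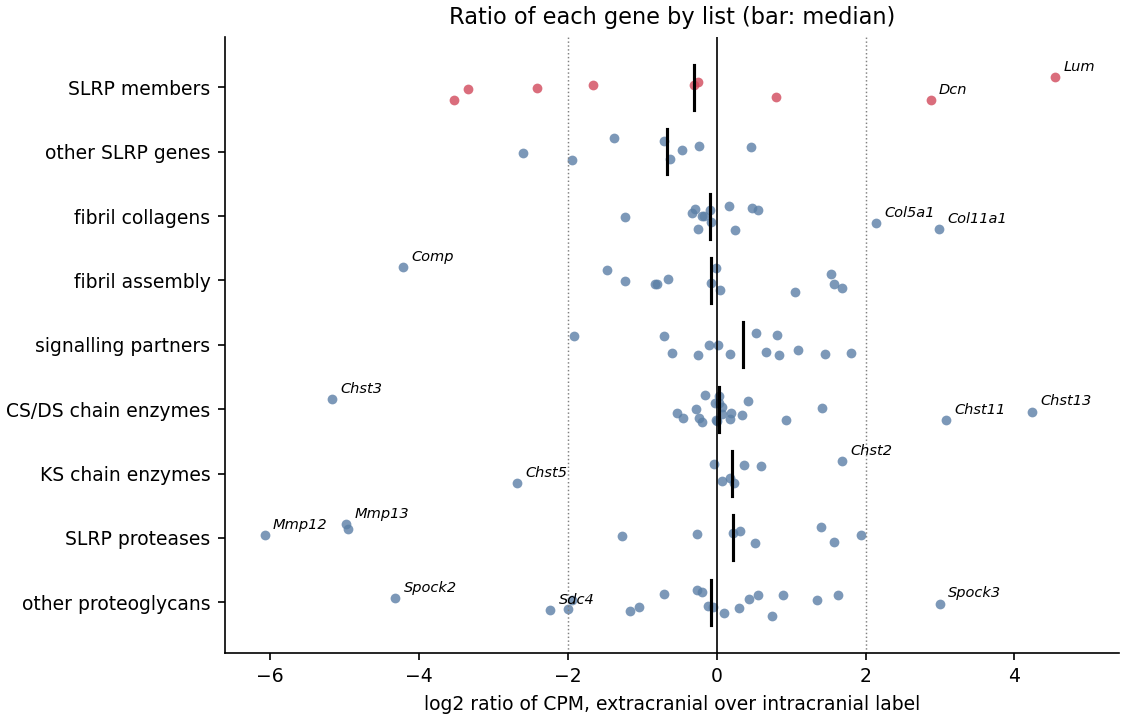
Log2 ratio of CPM, extracranial over intracranial label, for each gene with a ratio, by list, with a black bar at the list's median and dotted lines at 4-fold (CS/DS, chondroitin and dermatan sulfate, and KS, keratan sulfate). SLRP members (red) spread from -3.52 to 4.54 around a median of -0.30, whereas the fibril collagens lie mostly near 0, with Col5a1 and Col11a1 apart.

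Markers of connective tissue cells that make SLRPs differed between the libraries as well. Of 12 fibroblast markers, 8 were lower and 4 higher in the library labelled extracranial, with a median log2 ratio of -0.91, and their sum was 905 CPM in the library labelled intracranial and 595 CPM in the library labelled extracranial. Fbln1, the gene of a fibulin, was the only called gene among the 11 compared, beside 5.41% of all compared genes in its direction. It had 506 and 57 counts and a log2 ratio of -2.77 (-3.19 to -2.38). Pdgfrb, a receptor of mesenchymal cells, had 254 and 280.5 CPM. Mfap4, a microfibril gene, had 317 and 78.2 CPM, and Pdgfra, another receptor of mesenchymal cells, had 271 and 138 CPM. Thy1, a surface marker of fibroblasts, went the other way, with 808 and 2096 counts and a log2 ratio of 1.75 (1.63 to 1.87), beyond 2-fold.

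Of 7 tendon markers, 5 were compared. Of these, 1 was called higher in the library labelled intracranial, beside 5.41% of all compared genes in that direction. It was Mkx, a transcription factor of tendon cells, with 2420 and 215 counts and a log2 ratio of -3.12 (-3.32 to -2.91). Tnmd, the defining gene of mature tendon, had 2 and 7 counts. The tendon markers summed to 111 and 60.8 CPM. Cartilage markers summed to 33.6 and 29.1 CPM, with Matn1 and Cnmd at or under the floor in both libraries and Sox9, their highest, at 23.1 and 12.4 CPM. Among 12 bone and tooth markers, Dmp1, of osteocytes and odontoblasts, had 29 and 3988 counts and a log2 ratio of 7.48 (6.96 to 8.06), whereas Bglap, the gene of osteocalcin, had 60 and 4 counts and -3.53 (-5.45 to -2.10). Spp1, the gene of osteopontin and the highest of the list, had 272 and 488 CPM, and Dspp and Ambn, which define teeth, had 0 counts in both. The tendon, cartilage and bone markers held genes that differed in both directions.

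Markers of cells around a tumor differed as well. Of 10 keratinocyte markers, 8 were called higher in the library labelled intracranial, beside 5.41% of all compared genes in that direction. Skeletal muscle markers summed to 45.2 and 10.3 CPM, with Acta1, an actin, at 545 and 173 counts and Myh1, a myosin, at 243 and 2, while Myod1 had 0 counts in both libraries. Schwann cell markers summed to 239 and 155 CPM, and their highest gene, Pmp22, had 178 and 135 CPM. All 3 lists were thus higher in the library labelled intracranial. Macrophage markers moved with Dcn and Lum, with 8 of 9 higher in the library labelled extracranial and sums of 5820 and 12783 CPM. Their highest gene, Lyz2, the macrophage lysozyme, had 2950 and 4661 CPM, and Cd163, a scavenger receptor, was called in the other direction, with 3507 and 480 counts. Endothelial markers were higher in the library labelled extracranial for 8 of 8 genes, none of them called, with sums of 219 and 363 CPM. The highest, Cldn5, a tight junction gene, had 88.8 and 95.6 CPM. Of 11 meningeal markers, Zic1 and Slc22a6 had 0 counts in both libraries, and Aldh1a2, the retinaldehyde dehydrogenase, had 16 and 1420 counts and a log2 ratio of 6.85 (6.14 to 7.66). The highest of that list, Crabp2, a retinoic acid binding protein, had 147 and 219 CPM. Meningeal genes did not shift together. The ratio was above 1 for 3 and below 1 for 4 of the 7 that had one, with a median log2 ratio of -0.04. Foxc1 went against Aldh1a2 and Crabp2, with 168 and 26 counts and a log2 ratio of -2.32 (-2.97 to -1.71), beyond 2-fold. Of 4 corneal markers, Krt12, a keratin particular to corneal epithelium, had 2 and 0 counts, as low as Kera, whereas Aldh3a1 had 4272 and 1 counts and Angptl7 had 402 and 760.5 CPM. The study reports Angptl7 as a marker of tumor cells of spinal MYC RT, so here it is not a marker of cornea alone. The part of the listed cell types in the SLRP levels was not tested.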

How the data were processed

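Bulk RNA-seq was available for 2 tumors, grouped by the localization label alone, with 1 library per location. The deposited values were raw read counts per Ensembl gene, without normalization. The authors had made the libraries with a directional kit after poly(A) selection, aligned single reads with STAR 2.7.9a to GRCm39 with Ensembl gene models and counted them with featureCounts. The settings for strand and for reads with several alignments were not given in the sources used here. Counts of overlapping or antisense genes are therefore uncertain.

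Symbols, biotypes, gene order and lengths came from GENCODE mouse release 21, an older build, so no coordinates of the files were used. Symbols were found for 52083 of 55416 IDs (93.99%). Promoter windows were from RefSeq (GRCm38.p6).

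For CPM, each library total was multiplied by its TMM factor (trimmed mean of M-values) from edgeR 4.0.16, run under R 4.3.3. Levels were given Clopper-Pearson 95% intervals, computed with scipy 1.17.1, and ratios of genes with 10 or more counts were given conditional exact binomial 95% intervals. Calls required the entire interval of a gene to exceed 4-fold. Counts of 3 or fewer were set to 3 for ratios, so these bound the observed ratio and not the true one. A gene without more than 3 counts in either library got no ratio. With 1 library per group the quasi-likelihood test could not be fitted. Since the reads carried no molecular identifiers, molecules could have been counted repeatedly, and intervals and floors cover counting error only. The procedure was tested on simulated counts that held counting error alone. With no spread between tumors in them, that test cannot show how the intervals fare against such spread. Alternatives were DESeq2 1.42.0 size factors, total counts, upper quartile scaling, scaling to the median fibroblast marker, other count minimums, 2-fold, the ratio alone, a prior count of 2, protein-coding genes only and other lengths.

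The members and gene lists were chosen with earlier results of these data known. Named were all members, the nearest protein-coding genes beside each cluster and, in each list, the highest gene and the called genes with the ratio farthest from 1 in each direction. Other list genes (Col5a1, Mfap4, Pdgfra, Thy1, Chst11, Mmp3, Mmp13, Optc, Tnmd, Chad, Foxc1 and the markers at or near 0) were named after their values were seen. The chain enzymes, partners and cell markers were listed from general knowledge. Protein sequences were not analysed here, and 1 gene that this rule names is not reported here.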

Additional observations from a re-analysis of the deposited data

How the results depend on the processing

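With 1 library per location, leaving out a library was not run and the spread between tumors is unknown, so each ratio compares these 2 libraries and not the locations. No paired analysis was possible because no location had a second library. The deep counts make the intervals of the 8 compared SLRP genes narrow, whereas Kera and Epyc, at 0 to 4 counts, were limited by depth.

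Of the SLRP genes, 5 were called with 3 other scalings of library sizes, all count minimums, the ratio alone and protein-coding genes, against 6 with an interval beyond 2-fold, which added Omd, and 4 with scaling to the fibroblast markers, which left out Prelp at -1.51. The number of called genes over the whole table was 1581, 3434 with the interval beyond 2-fold and 2542 with the ratio alone beyond 4-fold, since both are looser rules. It was 1937 with scaling to the fibroblast markers. The median log2 ratio of the members was -0.30, and it was -0.26 with upper quartile scaling, 0.61 with scaling to the fibroblast markers, which adds 0.91 to every log2 ratio, and -0.98 without Kera. That fibroblast scaling also turned Ogn and Bgn, so that 7 of 9 members kept their sign. Total counts, upper quartile scaling and the size factors of DESeq2 moved ratios by -0.02 to 0.04, and the medians of 19 of 20 lists kept their sign under them, the exception being the meningeal markers. The share of Ogn was 46.3% and 52.1% per kb of exon in the libraries labelled intracranial and extracranial, 39.9% and 42.0% of the counts, and 41.3% and 37.6% per kb of the longest protein-coding transcript. The transcript length, the calls with fibroblast scaling and the median without Kera were chosen after seeing the data.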
